A study of Mus musculus with 74 samples.

Results

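RNA-seq of primary tumors (PTs) was set side by side for a pair of transgenic mouse models of breast cancer on the FVB background, in which either the simian virus 40 T antigen or the receptor Her2 drives the mammary tumors. Genes were taken where both tables gave a PT mean and that mean was at least 10 normalized counts in both models or at least 50 in one of them, which kept 16287 of the 17151 genes found in both tables. There were 19320 genes in the C3Tag table and 18208 in that of Her2.

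The C3Tag mouse carries C3(1)/TAg-REAR, in which the flanking sequence of the rat C3(1) gene drives the T antigen, and served the study as a basal-like model. The Her2 mouse, labelled MMTV-Her2, carries neu, the rat form of the receptor, under the mouse mammary tumor virus (MMTV) promoter. The labels give 7 C3Tag PTs and 6 Her2 PTs, and 7 and 6 Lung mets of the same models, out of 74 samples in the series. Each PT is ground tumor tissue of 1 animal, combined where it had several tumors. In both models the study resected the tumor of animals with a single lesion and then aged these animals further. Their PTs were thus taken earlier than their Lung mets. Which samples this concerns was not analysed here. No ages, treatments or per-sample values were analysed here, so each value below is the authors' mean of a group with no SD, and no test between the models was possible. Depth per sample is unknown. For placement only, PT means of F1 crosses of MMTV-PyMT mice, whose tumors are driven by the polyoma middle T antigen, were taken from the tables named for the strains BALB and SEAGN. The titles and genotype labels of the PyMT samples name different strains for many of them, so the strain behind these means is in doubt.

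Basal-like breast tumors are recognized by keratins of the outer, basal layer of the mammary duct, by loss of hormone receptors and by fast division. Luminal tumors keep the keratins, hormone receptors or milk genes of the inner layer. T antigen binds and disables the retinoblastoma (Rb) family and p53, and the Rb family normally holds back the E2F factors that switch on DNA replication genes. Her2, encoded by Erbb2, is a receptor kinase that signals as a partner of other ErbB receptors, in particular Erbb3.

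Each mean was divided by the median over the joined genes of its own table, 471 normalized counts in C3Tag and 511 in Her2, since the tables were normalized separately. The log2 difference given throughout is the scaled C3Tag mean over the scaled Her2 mean, with 0.01 of the median added to both, and a positive value stands for a higher level in C3Tag. Its median over the compared genes was 0.07, and the middle 50% of genes lay between -0.64 and 0.81. At least 2-fold higher in C3Tag were 3361 genes (20.6%), and at least 2-fold lower were 2581 (15.8%). The 4-fold threshold was passed by 1117 genes (6.86%) upward and 671 (4.12%) downward. These shares are the background for every count of list members. Scaling to the total of the joined genes in place of the median moved the median difference to 0.29 and the counts at 2-fold to 4181 higher and 1914 lower, so that 68.6% of genes past the threshold were higher in place of 56.6%. The counts were nearly even by rank, with 2947 higher and 2928 lower (50.2%), and with at least 50 required in both models, with 2191 and 2160 (50.4%), so the excess of higher genes depended on these choices.

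Erbb2 separated the models in the direction of their labels. The authors' mean of Erbb2 (chr11:98412470-98437716 in GRCm38) was 2981 in C3Tag and 99569.9 in Her2, a 30.8-fold lower level in C3Tag (log2 difference -4.94, and -5.29 in the Lung mets). Whether reads of the rat transgene were counted under the mouse gene is not given in the sources used here. Her2 tumors also had more Erbb3, the partner receptor with an impaired kinase, at 9766 against 4205 (log2 difference -1.10). Egfr, which is counted among basal markers, was not higher in C3Tag, with means of 2237 in C3Tag and 3556 in Her2 (-0.55). Erbb4 was not analysed here.

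Genes beside Erbb2 on chromosome 11 did not share its difference. Of 8 compared neighbours, 3 were at least 2-fold higher in C3Tag and 1 at least 2-fold lower, with a median of 0.25. Mien1 was the one lower in C3Tag, with means of 465 in C3Tag and 3084 in Her2 (-2.60). Grb7, an adaptor that binds the receptor, stood at 1050.5 in C3Tag and 1394 in Her2 (-0.29), and Ppp1r1b was 597 against 124 in the other direction (2.34). Ikzf3 (1.43), Cdk12 (1.26), Med1 (0.79) and Pgap3 (-0.59) filled the range between them.

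Both basal keratins with a mean in the tables were higher in C3Tag. Krt14, the structural keratin of basal and myoepithelial cells, had a mean of 5105 normalized counts in C3Tag PTs and 15.6 in Her2 PTs, 268-fold apart on the scaled values with 0.01 of the median added (log2 difference 8.06). Krt17, a keratin of basal-like tumors, stood at 2271 against 22.2, 90.4-fold apart on the same scale (6.50). Their median log2 difference of 7.28 became 5.74 with 0.1 of the median added, and neither gene had a mean of at least 50 in both models. Both Her2 means were close to the lower filter limit, and both genes kept the direction in the Lung mets with log2 differences of 5.55 and 4.29. Krt5, Krt15, Krt6a, Krt6b and Krt16 were not analysed here.

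**Figure D1:**
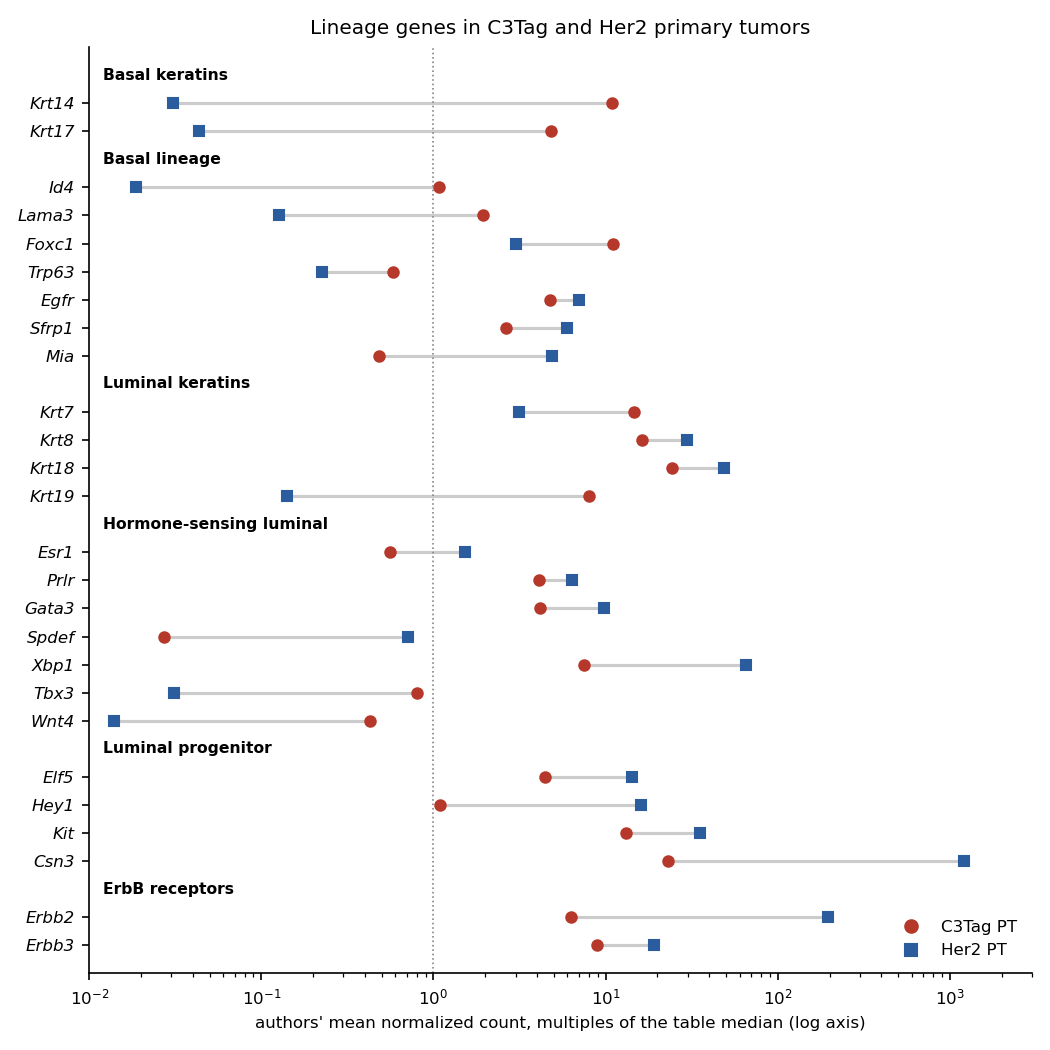
Authors' mean normalized count of lineage genes in C3Tag PTs (red circles) and Her2 PTs (blue squares), as multiples of each table's median on a log axis, with the dotted line at the median. Each line joins the same gene in both models, and the basal keratins, Id4, Krt19 and Csn3 span the longest distances.

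The rest of the basal program was divided. Among 15 compared genes of basal lineage and adhesion, 6 were at least 2-fold higher in C3Tag and 2 at least 2-fold lower, and the median was 0.12 against 0.07 over all genes. Id4, an inhibitor of DNA-binding helix-loop-helix factors, reached 505 against 9.53 (5.24). Its Her2 mean was under 10, so it passed the filter only through C3Tag. The laminin chain Lama3 stood at 919.6 against 64.3 (3.85). Foxc1, a forkhead factor used to recognize basal-like tumors, was 5235 against 1530.0 (1.89), but its Her2 mean was itself 3.00 times the table median. Trp63, the p63 master factor of basal cells, was 273 against 115 in PTs (1.33) and had the opposite sign in Lung mets (-0.71).

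Other genes that mark the basal layer were higher in Her2. Mia, a small secreted protein, had means of 228 in C3Tag and 2479.6 in Her2 (-3.30), and the Wnt antagonist Sfrp1 of 1236 in C3Tag and 3052 in Her2 (-1.19). Sox10, a factor of neural crest and mammary progenitors, stood at 6816 against 11039 (-0.58) and was named outside the rule for genes. Col17a1, a hemidesmosome collagen, had a mean only in the C3Tag table (380.4). Over the 9 compared genes that define the basal class in the PAM50 breast cancer signature, 3 were at least 2-fold higher and 2 lower in C3Tag, and the median was -0.52, below that of all genes. The higher ones were Krt14, Krt17 and Foxc1.

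The contractile genes of myoepithelial cells did not follow the basal keratins. Of 8 compared, 2 were at least 2-fold higher in C3Tag, Actg2 (87.1 against 39.7) and Cnn1 (49.4 against 23.1), and 2 lower, Myl9 (158 against 355) and Lmod1 (153 against 1359). Their median was -0.07. Acta2, smooth muscle actin, stood at 706 in C3Tag and 1051 in Her2 (-0.46). Oxtr, the oxytocin receptor through which milk is ejected, had a mean in the Her2 table only (994).

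The luminal keratins were present in both models and split in direction. Krt8 had means of 7626 in C3Tag and 15220.1 in Her2 (-0.88), and its partner Krt18 of 11399 in C3Tag and 25016 in Her2 (-1.02). Krt7 was higher in C3Tag, at 6893 against 1602 (2.22). Krt19, a keratin of ductal luminal cells, showed a gap of the order of the basal keratins, 3792 against 72.3 (5.73), which narrowed to 2.29 in the Lung mets. Krt7 and Krt19 were therefore on the C3Tag side together with Krt14 and Krt17. Krt8 and Krt18 leaned to Her2 by a small difference whose size depended on the scaling. By rank Krt8 had -0.52 and Krt18 -0.42, both within 2-fold. With the adjustment for transcript length described below they had -0.54 and -0.41, again within 2-fold. Krt7 and Krt19 stayed past 2-fold by rank (2.34 and 5.51) and with that adjustment (2.08 and 6.07).

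Hormone-sensing luminal genes were not uniformly a Her2 feature. Of 12 compared, 4 were at least 2-fold lower in C3Tag and 4 at least 2-fold higher (median -0.69). Esr1, the estrogen receptor, had means of 264 in C3Tag and 774 in Her2 (-1.42). Xbp1, a factor of secretory capacity that estrogen induces, stood at 3515 in C3Tag and 33351 in Her2 (-3.13), and the epithelial factor Spdef at 12.8 in C3Tag and 362 in Her2 (-4.27). Gata3, which maintains luminal identity, was also lower, at 1964 against 4969 (-1.22).

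In the opposite direction were Tbx3, a T-box factor of mammary bud and luminal cells, with 379.6 against 15.8 (4.31), the progesterone target Wnt4 with 201 against 7.14 (4.18), and Myb with 589 against 69.4 (3.11). All 3 kept their direction in the Lung mets (3.70, 4.31 and 2.36). Wnt4 had a Her2 mean under 10 and passed the filter only through C3Tag, and that of Tbx3 was near the limit. The size of both differences is therefore uncertain. Pgr, the progesterone receptor (54.8), Foxa1, a pioneer factor for Esr1 (248), and the EGF-family ligand Areg (494) had means only in the C3Tag table, so no difference could be given for them. Of 10 compared PAM50 luminal genes, 3 were at least 2-fold lower and 0 higher in C3Tag (median -0.27), the lower ones being Mlph (-2.82), Esr1 and Blvra (-1.36).

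Genes of milk secretion and its control in the alveolar luminal program leaned to Her2. Of 6 compared, 4 were at least 2-fold lower in C3Tag and 0 higher (median -1.52). The lower ones were Csn3, Xdh, Stat5a and Stat5b. Csn3, the kappa casein of milk, had a mean of 616615 in Her2 and 10797 in C3Tag, 52.7-fold lower (-5.72), and took 2.18% of the summed means of the Her2 PTs against 0.0484% in C3Tag. Xdh, an enzyme needed to secrete milk fat, was 25123 against 2324 (-3.32). Stat5a and Stat5b, the factors that carry the prolactin signal, were both lower in C3Tag, with log2 differences of -1.68 and -1.37. Ltf, lactoferrin, differed less in PTs (-0.35) than in Lung mets (-3.70), and Muc1 was near equal (0.25).

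Most milk protein genes had a mean in the Her2 table only. These were Csn1s2a at 139565, Csn1s1 at 97227, Csn2 at 56712, Lalba, the lactose synthase subunit, at 30513, Btn1a1, a coat protein of milk fat droplets, at 11743, and Csn1s2b at 1337. Wap, whey acidic protein, followed at 433 and Olah, the enzyme that sets the chain length of milk fatty acids, at 369. A gene that has a mean in 1 table is not thereby at 0 in the other, so these are levels and not differences. The C3Tag table held 2169 genes of its own with a median of 16.4, and that of Her2 held 1057 with a median of 13.3, which places the caseins far above the usual gene of this kind.

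Luminal progenitor genes leaned to Her2. Of 8 compared, 4 were at least 2-fold lower in C3Tag and 2 higher (median -1.07, and -1.60 in Lung mets). Csn3, already counted among the milk genes, was one of the lower ones. By rank the 2 middle members, Kit and Ehf, had -1.09 and -0.23, so the list median was under 2-fold. Elf5, the factor that directs the alveolar fate, stood at 2105 in C3Tag and 7275 in Her2 (-1.67), and the receptor kinase Kit at 6169 in C3Tag and 18099.8 in Her2 (-1.44). Hey1, a Notch-responsive repressor, had means of 514 in C3Tag and 8202 in Her2 (-3.87). Bcl11a (1.83) and Aldh1a3 (1.43) were higher in C3Tag, with means of 855 against 256 and 584 against 231.

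Epithelial junction genes had a median of 0.00 over 14, with 1 at least 2-fold higher in C3Tag and 4 lower. Cdh1, E-cadherin, was present at similar scaled levels, with means of 12386 in C3Tag and 8130.0 in Her2 (0.72). The lower genes were the claudins Cldn8 (-2.27), Cldn1 (-1.84) and Cldn3 (-1.15) and the surface protein Epcam (-1.13). Ovol1, a repressor of mesenchymal genes, was the higher one (1.10).

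Mesenchymal genes were higher in C3Tag. Of 9 compared, 6 were at least 2-fold higher and 0 lower (median 1.51, and 2.84 in Lung mets). Fn1, fibronectin, stood at 50248 against 4038 (3.75), Cdh2, N-cadherin, at 662 against 67.1 (3.32), and the repressor Snai1 at 249.6 against 43.8 (2.49). Zeb2 (1.51), Foxc2 (1.99) and Prrx1 (1.25) were also past 2-fold, whereas Vim, vimentin, was 5359 against 7654 (-0.40). Twist1 had a mean in the C3Tag table only (437). Genes of this list are also expressed by fibroblasts, and with the median of each of 10 length classes of transcripts set to 0 the list median was 0.87.

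**Figure D2:**
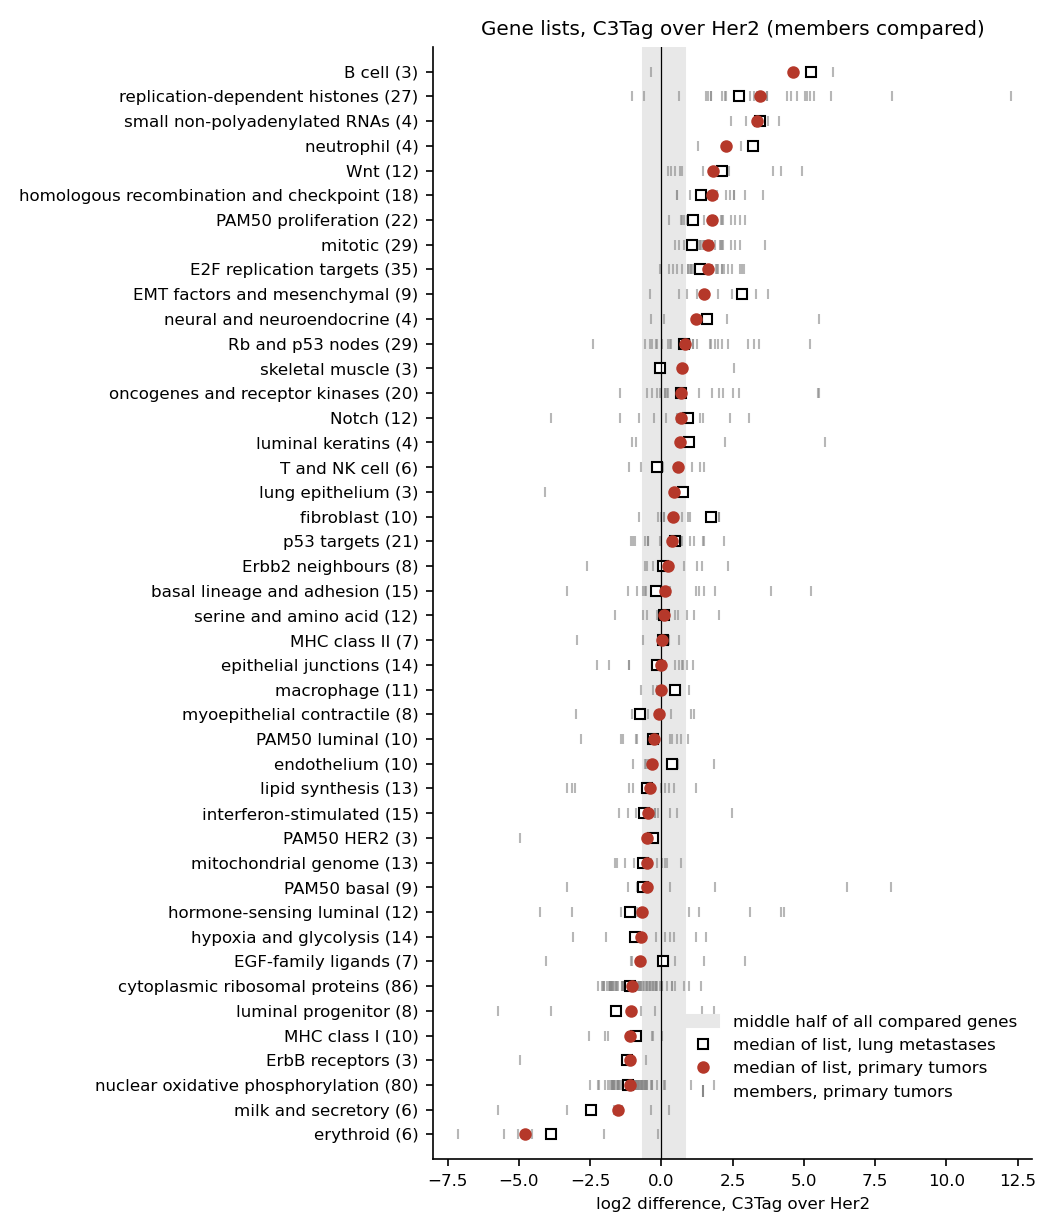
Log2 difference of C3Tag over Her2 for the members of each gene list in PTs (grey ticks), the list's median in PTs (red circles) and in Lung mets (open squares), for the lists with at least 3 compared genes, whose number is in brackets. The grey band spans -0.64 to 0.81, the middle 50% of all compared genes, and the replication, mitotic and repair lists lie to its right in PTs.

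Genes of the cell cycle were higher in C3Tag in larger shares than the background. All 29 genes of the Rb and p53 network were compared, of which 13 were at least 2-fold higher in C3Tag and 1 lower (median 0.85). Cdkn2a, which encodes the inhibitor p16Ink4a and the p53 activator p19Arf, had the largest difference, 2615 against 71.0 (5.22, and 6.53 in Lung mets). Its neighbor Cdkn2b stood at 754 against 81.2 (3.25), and the related inhibitor Cdkn2c at 1533 against 500.3 (1.72). The means do not separate the p16Ink4a and p19Arf transcripts.

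Among the E2F factors, the activators E2f1 (1708 against 417, 2.14) and E2f2 (932 against 195, 2.34) were higher in C3Tag. The atypical repressors E2f7 (1441 against 139.7, 3.43) and E2f8 (1673 against 216, 3.04), themselves E2F targets, differed more. E2f3 (0.83), E2f4 (0.74), E2f5 (-0.15) and E2f6 (-0.39) stayed within 2-fold. Of the pocket proteins Rbl1 was higher (1.89), and Rb1 (0.24) and Rbl2 (-0.57) stayed within 2-fold. Trp53 itself had means of 2557 in C3Tag and 1287 in Her2 (1.10).

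The D cyclins went separate ways. Ccnd1, cyclin D1, was the member lower in C3Tag, with means of 2543 in C3Tag and 14666 in Her2 (-2.41), but the gap was not seen in the Lung mets (-0.24). Ccnd2 was higher (1.24) and Ccnd3 near equal (0.04). The D-cyclin partner Cdk6 stood at 1734 against 466 (2.00), while Cdk4 was -0.19 and Cdk2 0.85. Of the E cyclins Ccne2 was past 2-fold (1.76) and Ccne1 was not (0.79). The inhibitors Cdkn1b (1.10), Cdkn1a (0.99), Cdkn2d (0.63) and Cdkn1c (-0.32) and the p53 regulators Mdm2 and Mdm4 (both 0.32) completed the network.

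Targets of E2F in DNA replication were nearly all on the C3Tag side. Of 35 genes, 28 were at least 2-fold higher in C3Tag and 0 lower, against 20.6% and 15.8% of all genes, with a median of 1.65 and a range from -0.05 to 2.90. Orc1, a subunit of the origin recognition complex, stood at 559 against 76.5, and Cdt1, which loads the replicative helicase, at 1751 against 262 (2.83). The helicase subunits Mcm3 (2.35) and Mcm6 (2.19), the DNA polymerase Pole (2.76) and the chromatin remodeler Hells (2.46) followed. Pcna, the sliding clamp, differed by 0.40 and the helicase cofactor Gins4 by -0.05.

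Promoters of these genes often held the letters that E2F factors bind. The motifs searched were TTTCGCGC, TTTGGCGC, TTTCCCGC and TTTGCCGC on both strands, in RefSeq promoter windows of 300 bases, 250 before and 50 after the start. Of the 29 replication genes with a window, 16 (55.2%) had at least 1 match, against 704 of 27025 genes (2.60%) with a window in all and 501 of 10999 compared genes (4.55%). The 16 with a match had a median log2 difference of 1.85, and the 13 with none of 1.08. Over all compared genes with a window, the 501 with a match had a median of 0.33 and the 10498 with none of 0.02. The list was chosen as E2F targets, so a raised share of matches was likely from the choice alone. Of the 24 mitotic genes with a window, 1 had a match. A match is a description of the letters and not evidence of binding.

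The 6 replication genes with the largest difference and a match before the start are shown, since they carry the motif next to the gene whose level differed. Each line holds 60 bases upstream of the start, 5' to 3' on the strand of the gene, with the motif or its reverse complement in capitals, from GRCm38. The capitals begin 27 bases before the start in Orc1, 62 in Hells, 47 in Mcm6, 138 in Pola1, 138 in Cdc6 and 185 in Uhrf1.
Orc1, plus strand, chr4:108579394-108579453: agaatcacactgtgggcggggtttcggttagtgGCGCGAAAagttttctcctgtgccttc
Hells, plus strand, chr19:38930902-38930961: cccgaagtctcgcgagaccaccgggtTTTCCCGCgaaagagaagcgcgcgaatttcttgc
Mcm6, minus strand, chr1:128359719-128359778: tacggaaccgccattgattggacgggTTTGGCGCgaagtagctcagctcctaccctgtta
Pola1, minus strand, chrX:93632260-93632319: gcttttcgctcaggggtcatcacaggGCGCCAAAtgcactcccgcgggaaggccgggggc
Cdc6, plus strand, chr11:98907987-98908046: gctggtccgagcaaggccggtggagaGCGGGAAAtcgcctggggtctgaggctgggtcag
Uhrf1, plus strand, chr17:56304102-56304161: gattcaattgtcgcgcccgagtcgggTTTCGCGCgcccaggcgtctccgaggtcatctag

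The levels behind these sequences were 3881 against 948 for Pola1, the polymerase that starts each strand (2.14). Cdc6, which loads the helicase with Cdt1, stood at 1263 against 307 (2.14). Uhrf1, which maintains DNA methylation, was 6628 against 2124 (1.75).

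Mitotic genes were also higher in C3Tag. Of 29 compared, 25 were at least 2-fold higher in C3Tag and 0 lower (median 1.65, and 1.07 in Lung mets). Foxm1, the factor that drives the late cell cycle, had means of 7355 in C3Tag and 641 in Her2 (3.62), and Mybl2, its partner in mitotic transcription, of 1396 in C3Tag and 219 in Her2 (2.76). The spindle and division proteins Anln (2.58), Cenpf (2.43), Cenpe (2.17) and Top2a (2.14) came next. Mki67, the proliferation marker Ki-67, stood at 28933 against 9045 (1.79). In the PAM50 proliferation set 17 of 22 genes were at least 2-fold higher and 0 lower (median 1.77). Most genes of this set are also members of the mitotic, replication, repair or other lists, so it is not a separate result.

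Repair and checkpoint genes were higher in C3Tag too. Of 18 compared, 15 were at least 2-fold higher in C3Tag and 0 lower (1.78). Brca1 stood at 3698 against 685 (2.54), its partner Bard1 at 1776 against 156 (3.58) and Brca2 at 2216 against 451 (2.40). Exo1, Rad54l and the helicase Blm had log2 differences of 2.92, 2.53 and 2.27.

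Targets of p53 were mixed, with 4 of 21 at least 2-fold higher in C3Tag and 1 lower (median 0.37). Pmaip1, which encodes the death protein Noxa, was 329.7 against 73.3 (2.21), followed by Phlda3 (1.48), Sesn2 (1.45) and the death receptor Tnfrsf10b (1.15). Ccng1 was the lower one (-1.08). Mdm2, which p53 induces and which degrades it, was within 2-fold.

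A block of genes at the distal end of chromosome 6 was higher in C3Tag. In windows of 10 Mb with at least 10 compared protein-coding genes, 259 in all, chr6:140000001-150000000 in GRCm38 had a median of 2.46, and the next window, on chromosome 16, had 0.99. Of its 44 genes, 35 were at least 2-fold higher in C3Tag and 1, Kcnj8, lower. In windows of 5 Mb the last of the chromosome, chr6:145000001-150000000, had a median of 3.12 with 27 of 30 genes at least 2-fold higher. The Lung met means gave medians of 1.71 and 2.20 for the same windows, and with transcript length adjusted for, the 10-Mb window had 2.59 and was again the highest.

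Several genes of this block were far apart between the models. Casc1 stood at 2441 against 26.2 (6.40). Further along, the clock factor Arntl2 was 2547 against 32.1 (6.21), Rep15 986 against 9.54 (6.19), the repressor Bhlhe41 27422 against 659 (5.48) and Bicd1 4501 against 125 (5.23). Rep15 was under 10 in Her2 and passed the filter only through C3Tag. DNA copy number was not analysed here.

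**Figure D3:**
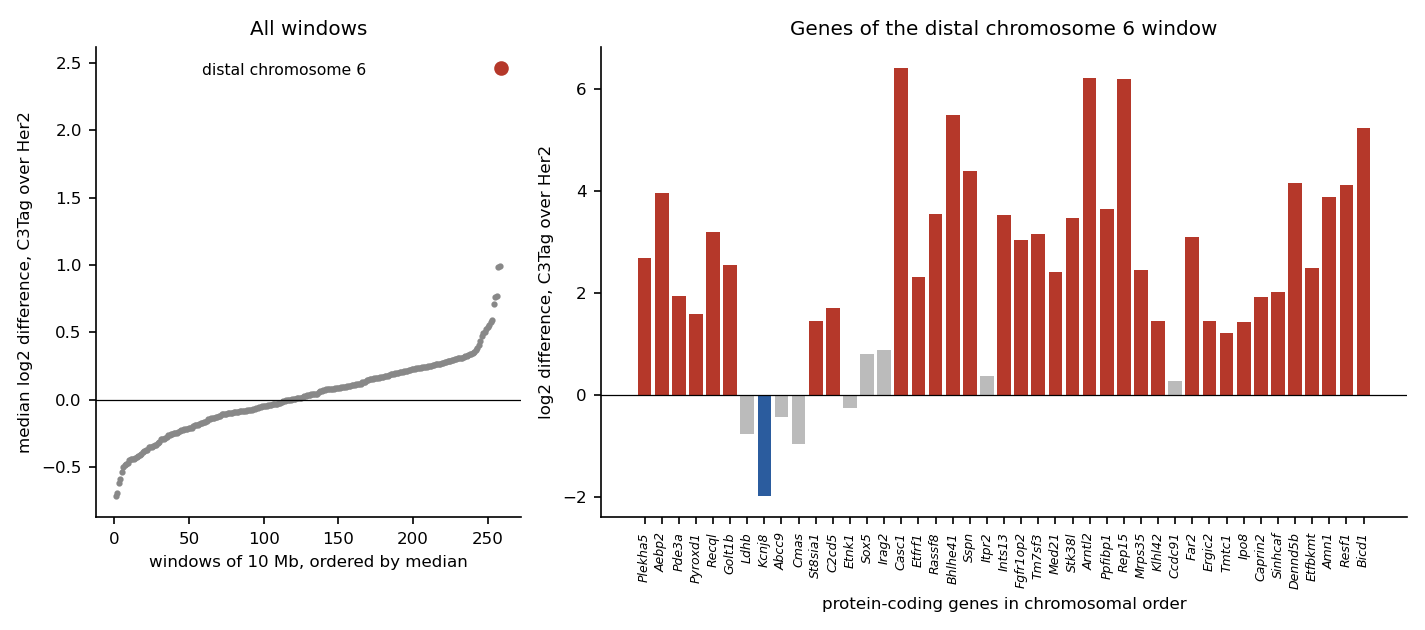
Left, the median log2 difference of C3Tag over Her2 for each of 259 windows of 10 Mb, ordered by value, with the distal chromosome 6 window in red at 2.46. Right, the log2 difference of genes of that window in chromosomal order, red where at least 2-fold higher in C3Tag, blue where at least 2-fold lower and grey between, with Kcnj8 as the only blue bar. Not every gene of the window is drawn.

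The other windows were less even. The chromosome 16 window, chr16:70000001-80000000, held 10 genes of which 5 were at least 2-fold higher, led by the nuclear receptor corepressor Nrip1 (2.17) and the guidance receptors Robo2 (2.02) and Robo1 (1.52). The third, chr4:80000001-90000000 with a median of 0.98, held Cdkn2a and Cdkn2b with Bnc2 (3.81), Cntln (3.00) and Ttc39b (2.49), and in the opposite direction the lipid droplet protein Plin2 (-3.03). The lowest medians were -0.72 on chromosome X, where Arhgef6 (-4.60) and Ints6l (-2.53) were lower and Mbnl3 higher (3.14), -0.69 on chromosome 6, with Pdzrn3 (-1.91) and Setmar (-1.77), and -0.62 on chromosome 12, with Pnpla8 (-1.49) and Arl4a (-1.46).

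Oncogenes and receptor kinases were higher in C3Tag in 8 of 20 cases and lower in 1, which was Kit. Fgfr3, a fibroblast growth factor receptor, was 1198 against 23.0 (5.53, and 2.30 in Lung mets). The insulin-like growth factor receptor Igf1r stood at 3752 against 709 (2.51). Myc had means of 9372 in C3Tag and 2271 in Her2 (2.16), and its relative Mycl of 159 in C3Tag and 21.5 in Her2 (2.73). Pdgfra (2.02) is also a fibroblast gene.

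Ligands of the ErbB family differed in both directions. Egf was higher in Her2, with 1132 against 58.7 (-4.05), and Hbegf higher in C3Tag, with 1602 against 222 (2.94). Nrg1, a ligand of Erbb3, stood at 186 against 68.6 (1.48), and Nrg2 at 238 against 547 (-1.07). Btc (-1.02) and Tgfa (-0.76) were lower in C3Tag, and Ereg had a mean in the C3Tag table only (402).

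Wnt pathway genes were at least 2-fold higher in C3Tag in 7 of 12 cases and lower in 0 (median 1.80). The nuclear factor Tcf7 stood at 1048 against 32.6 (4.92), the ligand Wnt7b at 1704 against 116 (3.93), the receptor Fzd7 at 4885 against 1107 (2.25) and the feedback inhibitor Axin2 at 109.7 against 18.7 (2.38). Several Her2 means of this list were under 50, and with a pseudocount of 0.1 of the median the list median was 1.06. In the Notch pathway the ligands Jag2 (3.08) and Jag1 (2.42) and the receptors Notch1 (1.45) and Notch2 (1.34) were higher in C3Tag, and the ligand Dll1 (-1.45) and the target Hey1 lower.

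The gene-by-gene extremes were partly lineage genes and partly means that the Lung mets did not share. H2ac7, a histone gene, had 123000.0 against 21.9 in PTs (12.27) but a C3Tag mean of 175 in Lung mets. Kcnj13, a potassium channel, had 46386 against 24.4 (10.74) and a C3Tag Lung met mean of 6.09. Another histone gene, H2bc18, stood at 8.09. Among 9158 protein-coding genes with a mean of at least 500 in either model, the highest differences besides those already named were in Prkg2, a cGMP-dependent kinase (3605 against 23.0, 7.12), Clip4 (7.00), Hmga2, a chromatin protein of embryonic cells (1027 against 5.36, 6.74), Adgrv1 (6.69), the keratin Krt79 (6.35) and Igf2bp2, an RNA-binding protein of the same embryonic set (833 against 6.93, 6.24). These 6 had log2 differences of 3.64 to 8.11 in the Lung mets. Hmga2, Krt79 (922 against 7.17) and Igf2bp2 had Her2 PT means under 10 and passed the filter only through C3Tag. The size of their differences is therefore uncertain. The gene model Gm47283 on chromosome Y was also among the highest differences (7.94), and its reads may be shared with copies elsewhere.

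Other genes were far higher in Her2. Slc25a34, a mitochondrial carrier, had means of 14.5 in C3Tag and 11395 in Her2 (-9.10), Clic6, a chloride channel protein, of 35.4 in C3Tag and 13233 in Her2 (-8.25), and Duox1, a hydrogen peroxide-producing oxidase, of 181 in C3Tag and 29423 in Her2 (-7.19). Ceacam10 (-7.68), Gldc, an enzyme that cleaves glycine (-7.36), Tmem82 (-7.09), Apoc1 (-6.71), Bcl2l14 (-6.25), Rdh12 (-6.17) and Efhd1 (-6.16) followed, and these 7 had log2 differences from -6.86 to -4.85 in Lung mets. Cd177, Tspan8, Cd36 and Fam174b were as low in C3Tag PTs (-8.37, -7.44, -7.06 and -6.18) but less so in Lung mets (-1.16, -2.82, -1.97 and -2.76). Ceacam10 and Cd177 had C3Tag PT means under 10 and passed the filter only through Her2.

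Lipid and glycolytic genes contained strong Her2-sided members without a common difference. In lipid synthesis 4 of 13 genes were at least 2-fold lower in C3Tag and 1 higher (median -0.39). The lower ones were the desaturase Scd1 (6322 against 67440.5, -3.30), the master factor Srebf1 (3965 against 37530.3, -3.13), Me1, which supplies NADPH (-3.01), and Thrsp (-1.12). In the hypoxia and glycolysis list Egln3 (-3.08), Aldoa (-1.95) and Bnip3 (-1.04) were lower, and Ndrg1 (1.57) and Vegfa (1.21) higher, with a median of -0.71. Serine and amino acid genes had a median of 0.10, with the folate enzyme Mthfd2 (2.01) and the cystine carrier Slc7a11 (1.15) higher and the stress gene Trib3 lower (-1.62).

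MHC class I genes, which present antigen, were lower in C3Tag, with 6 of 10 at least 2-fold lower and 0 higher (median -1.09, and -0.89 in Lung mets). B2m, the shared light chain, stood at 14311 against 90340.4 (-2.54), and the heavy chains H2-K1 at 12729 against 50933 (-1.89) and H2-D1 at 30161 against 72635 (-1.15). H2-T23 (-1.98) and the immunoproteasome subunits Psmb9 (-1.18) and Psmb8 (-1.02) were lower as well. By rank the 2 middle members of the list, Psmb8 and Tap1, had -0.96 and -0.71, so the list median was under 2-fold. With transcript length adjusted for, the 2 middle members, H2-D1 and Tap1, had -0.91 and -0.80, again under 2-fold. The class II list had a median of 0.01, and H2-DMb1 was its only member past 2-fold (-2.95). Interferon-stimulated genes had a median of -0.49, with Ifit3 (-1.49) and Oas1a (-1.16) lower and the chemokine Cxcl10 higher (2.49).

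Markers of other cells differed for some types only. Bulk tissue means cannot tell fewer cells of a type from less RNA per cell. Macrophage markers had a median of 0.00 with none of 11 past 2-fold and summed scaled levels of 39.2 in C3Tag and 45.7 in Her2. Fibroblast markers had a median of 0.40, with Col1a1 (2.04) and Pdgfra past 2-fold, summed levels of 97.7 and 52.0 and a median of 1.75 in Lung mets. Endothelial markers had a median of -0.34, with 1 of 10 past 2-fold in each direction. The part of fibroblasts in the mesenchymal list was not tested.

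Lymphocyte, neutrophil and red cell genes differed more. Igkc, an antibody light chain, stood at 4038 against 62.8 (6.01) and Jchain at 651 against 23.6 (4.63), while Ighm was -0.35, and Ms4a1 and Pax5, which define B cells, were not analysed here. All 4 compared neutrophil genes were at least 2-fold higher in C3Tag (median 2.26), led by Mmp9 (237 against 32.6). Their levels were low, and the 6 neutrophil genes with a mean in both models summed to 1.60 times the table median in C3Tag and 0.348 in Her2. Globins were far lower in C3Tag, with Hba-a1 at 85.9 against 13781 (-7.13) and Hbb-bs at 349.5 against 17622 (-5.52). T and NK cell markers had a median of 0.57 over 6 genes, at levels of at most 198 (Lck in C3Tag).

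Lung, muscle and fat markers were few among the compared genes. Sftpd, a surfactant protein, had means of 61.5 in C3Tag and 1213 in Her2, and the 3 compared lung markers, it included, summed to 0.368 times the table median in C3Tag and 2.54 in Her2. Sftpc, Sftpb, Sftpa1 and Scgb1a1 were not analysed here. Acta1, skeletal muscle actin, was 824 against 149 (2.54), and of the fat cell markers Fabp4 was 592 against 1287. Of 4 compared neural genes, 2 were at least 2-fold higher in C3Tag and 0 lower, led by Sox11 at 605 against 9.09 (5.54). The Her2 mean of Sox11 was under 10, so it passed the filter only through C3Tag. Among epidermal genes Krt10 stood at 313 against 69.3 (2.21). Xist, which silences an X chromosome in females, was 54743 against 40544 (0.55).

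RNA classes and transcript length also separated the tables. Replication-dependent histones, whose messages end without a poly(A) tail and are made in S phase, were at least 2-fold higher in C3Tag in 24 of 27 cases and lower in 1 (median 3.47). All 4 small RNAs without a tail were higher too, with Rn7s1 at 118557 against 7410.3. Of 423 antisense genes 140 were at least 2-fold higher and 32 lower (median 0.54), and of 42 sense intronic genes 25 and 1 (1.40). Protein-coding genes had 2517 and 2144 of 13265 (0.03), and processed pseudogenes 203 and 287 of 1336 (-0.08). Near-identical histone, Rn7s, globin and H2 class I copies may share reads, so their single values are uncertain. The labels name a total RNA kit with ribosomal depletion for the samples and the study's methods name mRNA libraries, and the library names of the models follow different schemes in the labels, so library preparation and model cannot be told apart.

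Protein-coding genes were divided into 10 equal classes by transcript length. Those in the shortest class had a median log2 difference of -0.61 and those in the longest 0.68, with a steady course between them and -0.60 and 0.59 in Lung mets. Ribosomal protein genes, which have short messages, had a median of -1.02 with 44 of 86 at least 2-fold lower, and -0.53 once the median of each length class was set to 0. Nuclear genes of oxidative phosphorylation had -1.10, with 42 of 80 lower, and -0.62 after adjustment. The replication (1.63), mitotic (1.62), repair (1.59), luminal progenitor (-1.25) and milk (-1.72) lists had the medians in brackets under the same adjustment. The basal lineage median turned to -0.14 and the PAM50 luminal median to 0.02, both to the other side of 0.

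**Figure D4:**
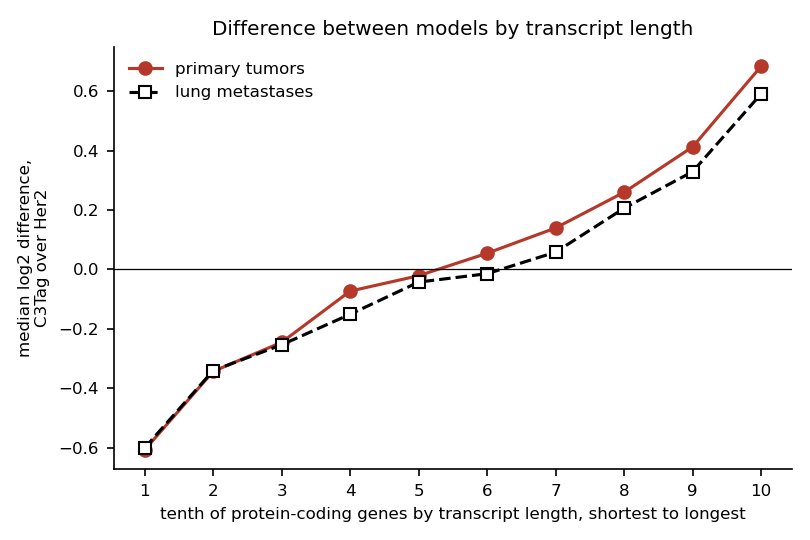
Median log2 difference of C3Tag over Her2 for protein-coding genes in 10 equal classes of transcript length, in PTs (red circles) and Lung mets (open squares). The medians climb from -0.61 in the shortest class to 0.68 in the longest in PTs.

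The difference between models was larger than that between tissues of a model. The former crosses tables that were normalized separately and the latter lies within a table, so model and table cannot be told apart here. The median absolute log2 difference was 0.72 between C3Tag and Her2 PTs, 0.24 between C3Tag PTs and Lung mets and 0.12 between Her2 PTs and Lung mets. At least 2-fold apart were 36.5% of genes between models, and 6.40% and 2.55% between tissues. Of the 3361 genes higher in C3Tag PTs, 3326 had the same sign in Lung mets and 2574 (76.6%) were again at least 2-fold higher. Of the 2581 lower ones, 2514 had the same sign and 2088 (80.9%) were again at least 2-fold lower. The tissues come from the same animals and the same tables, so this is not an independent repeat.

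**Figure D5:**
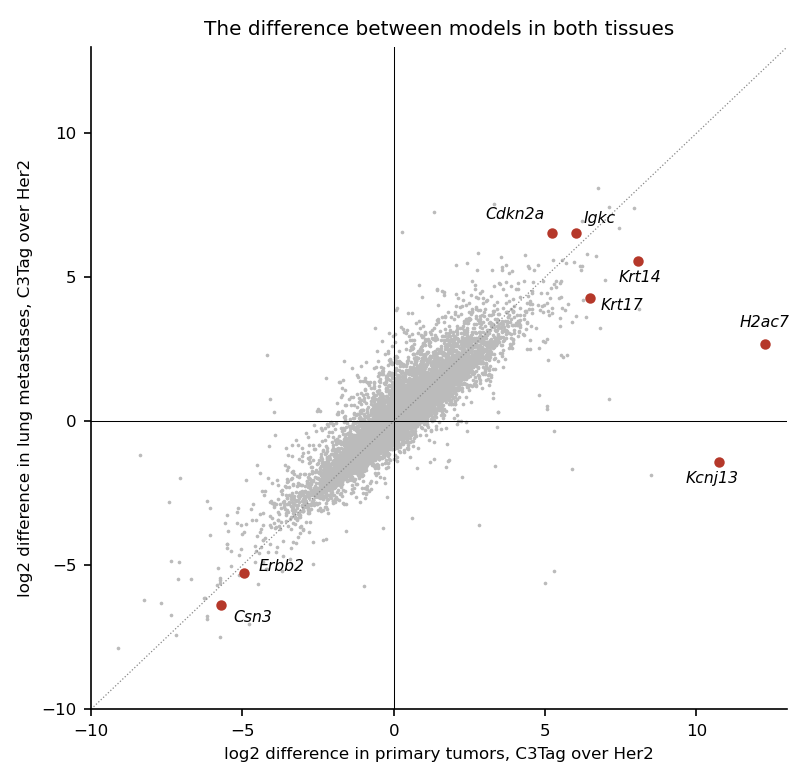
Log2 difference of C3Tag over Her2 in PTs (horizontal) and in Lung mets (vertical) for the compared genes, with named genes in red and the dotted line at equality. The gene model Gm24830, at 14.79 in PTs, lies beyond the axis. Most genes lie along the line, and Kcnj13 and H2ac7 are far to the right without a matching height in the Lung mets.

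The PyMT tumors were placed by percentile of each gene among 12528 symbols found in all 4 tables, with BALB and SEAGN standing for the names of the tables and not for settled strains. Krt14 and Krt17 had a median percentile of 89.2 in C3Tag, 3.82 in Her2, 61.7 in BALB and 63.0 in SEAGN. The 34 replication genes had 81.2 in C3Tag and 58.9 in Her2, with 51.4 and 50.8 in the crosses, whose mid-point was nearer to Her2 for 33 of the 34, against 5516 of all 12379 compared genes. The 29 mitotic genes had 83.9, 54.3, 58.8 and 54.4 in the same order. The 503 genes at least 4-fold lower in C3Tag had medians of 23.4 in C3Tag and 73.1 in Her2, and the crosses lay between them at 47.0 and 46.6. These genes were chosen by the same C3Tag and Her2 means. Any other group was therefore likely to fall between them, and the place of the crosses was not tested.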

How the data were processed

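RNA of PTs and Lung mets was sequenced, with a total RNA kit according to the labels and as mRNA libraries according to the study's methods. The authors deposited, for each model, a table with 1 least-squares mean of normalized counts per gene and tissue, a signal value that is not a raw count, made in Partek Flow from the samples of that tissue. The normalization method was not given in the sources used here. The study's methods name mm9 in one place and mm10 in another, and the submitters' processing notes name mm39, STAR 2.7.8a and DESeq2. The deposited tables also hold the p-values, false discovery rates, ratios and fold changes of the authors' comparison of Lung mets with PTs, which were not used. The labels give 7 C3Tag PTs, while the study's own sample list differs, and which of them entered the means was not settled.

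C3Tag and Her2 tables were joined by gene ID. Means were scaled to the median of the joined genes, 0.01 of the median was added, and log2 differences were taken, with 2-fold as the threshold for counts. The step was tested on simulated data, made from the Her2 means with a constant scale, little noise and known changes in some genes. The simulation held no trend with transcript length and no separate normalization. It therefore cannot vouch for the scaling between the real tables. No test between models was made, since the tables hold no replicate values, and depth per sample is unknown. Coordinates and biotypes came from GENCODE M21 and promoter windows from RefSeq, both on GRCm38. PyMT crosses, whose sample titles and genotype labels disagree on the strain, were used as percentiles only, and the tables of the AKR cross and the Myc model were not used. Analyses were run in Python 3.11.15 with numpy 2.4.6, pandas 2.3.3, scipy 1.17.1 and matplotlib 3.10.9.

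The comparison and the gene lists were chosen with earlier results of these data known. Named were all members of the driver, keratin, ErbB receptor and Rb and p53 lists, up to 6 members per other list with the largest difference and the largest in the opposite direction, the 15 leading protein-coding genes per direction with a mean of at least 500, and up to 6 genes of each of the 3 highest and 3 lowest windows. Other members and genes were named after their values were seen, among them Sox10, Gata3, Cdh1, Mki67, Pcna, Vim and Acta2. Alternatives covered scaling, filters, pseudocount, biotype, fold threshold, tissue and window size. A few list members are not reported here.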

Additional observations from a re-analysis of the deposited data

How the results depend on the processing

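No paired analysis was possible because the tables hold 1 mean per tissue and no replicate values, and no replicate could be left out for the same reason. Counts at 2-fold were 3361 higher and 2581 lower in C3Tag. With at least 50 required in both models the counts were 2191 higher and 2160 lower, and at 3-fold the counts were 1816 higher and 1152 lower. Of the medians of lists with at least 3 compared genes, 11 were at least 2-fold higher and 7 at least 2-fold lower. The latter number was 4 by rank and 2 when scaled to the total. Some lists share members, so these are not counts of separate results. The basal keratin list, with 2 genes, had no value with at least 50 required in both models, and its median moved from 7.28 to 5.74 with a pseudocount of 0.1. In 5-Mb windows the highest median was 3.12, against 2.46 in 10-Mb windows. The median of the squamous and epidermal list, which rests on 2 genes and is not among those counted, was 1.43 in PTs and -0.18 in Lung mets. Adjustment for transcript length and leaving out genes at least 32-fold apart between tissues of a model were chosen after seeing the data. The former gave 2261 higher and 1972 lower of the protein-coding genes, of which 2517 and 2144 had been called, and the latter 3349 and 2577. How far a mean rests on 1 animal cannot be read from these tables.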

Other observations

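Some means differed so much between tissues of the same model that the comparison of models turned with the tissue. In all, 22 compared genes were at least 32-fold apart between PTs and Lung mets of a model, 13 of them protein-coding. Of the 62 genes at least 32-fold higher in C3Tag PTs, 10 were under 2-fold higher or were lower in C3Tag Lung mets, and of the 41 at least 32-fold lower, 0 were of this kind. The small gene model Gm24830 had the highest C3Tag value of this group, 361453 in PTs against 1.13 in Lung mets. In Her2, Gm15583 went the other way, with 2.14 in PTs and 12489.9 in Lung mets. The lung genes Sftpd, Lamp3 and Napsa were also in the group, and their log2 differences of Lung met over PT in C3Tag were 6.06, 7.52 and 5.77.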
